A study of Mus musculus with 5 samples.

Results

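The regions described here are distal accessible regions of mouse hippocampal nuclei that were listed as peaks in each of 5 libraries. Peak rows of the 5 libraries were merged where they overlapped by at least 1 bp, which gave 220645 merged regions. Of these, 129620 held a peak of every library. A region was kept as distal when it did not overlap the stated position of any gene row widened by 1 kb, and a stretch of chromosome 6 was left out. The rule left 100031 distal regions, beside 29012 regions of all 5 libraries within 1 kb of a gene position and 77353 distal regions listed in 1 to 4 libraries. The choice rests on measured values, because the peak lists were made from the same cut sites that are counted below. Most nuclei were neurons, so a region open in a scarce cell type alone could be missed by the rule.

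The libraries are single-nucleus multiomes of hippocampus, in which RNA and transposase-accessible DNA are read from the same nuclei. The labels give 1 library to each of 5 genotypes. These are WT, 5xFAD and, on the 5xFAD background, an astrocyte MAGL-KO, a neuron MAGL-KO and a global MAGL-KO. All 5 share the label batch v3. The labels give no age, sex, number of animals or Cre driver for any library, and the cells in which MAGL was removed are known only from the words astrocyte, neuron and global. Wherever 5 values are given they follow this order, and the last 3 are called the astrocyte, neuron and global libraries. With 1 library per genotype there is no replicate and no test between genotypes, and all intervals are exact Poisson intervals at 95% that cover counting error only.

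5xFAD mice express human transgenes with familial Alzheimer's disease mutations under control of mouse Thy1 promoter sequence. MAGL, monoacylglycerol lipase, breaks down the endocannabinoid 2-arachidonoylglycerol. Accessible DNA away from gene starts holds enhancers, insulators bound by CTCF and promoters that an annotation does not list, and enhancers differ more between cell types than gene starts do. In the hippocampus, granule neurons of the dentate gyrus, other excitatory neurons, inhibitory neurons and the glial types each use their own enhancer sets, set up by factors such as Prox1, Dlx, Olig and PU.1.

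Sequences could be read for the members that hold a transcription start in the RefSeq table of GRCm38.p6, which gives each gene's 250 bases before its start and 50 after it. Of 32851 such windows, 863 lay in 780 distal regions. Below are the 250 bases before the start for the region of largest fold in inhibitory neurons, oligodendrocytes, their precursors and microglia among those with a window. They are shown because each is read again in the comparison of nuclear classes. A further sequence of 100 bases carries a CTCF motif in a region open in all neuron classes. Each runs 5′ to 3′ on the strand of its gene, and capitals mark motif letters found on either strand, of all motifs searched in the first 4 and of CTCF alone in the last.
Dlx6os1, chr6:6869534-6869783, minus strand: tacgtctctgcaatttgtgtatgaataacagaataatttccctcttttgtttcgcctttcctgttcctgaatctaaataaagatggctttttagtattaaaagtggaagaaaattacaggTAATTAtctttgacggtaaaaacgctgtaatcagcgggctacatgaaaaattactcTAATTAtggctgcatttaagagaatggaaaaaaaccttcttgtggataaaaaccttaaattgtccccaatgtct
Arhgap32, chr9:32016375-32016624, plus strand: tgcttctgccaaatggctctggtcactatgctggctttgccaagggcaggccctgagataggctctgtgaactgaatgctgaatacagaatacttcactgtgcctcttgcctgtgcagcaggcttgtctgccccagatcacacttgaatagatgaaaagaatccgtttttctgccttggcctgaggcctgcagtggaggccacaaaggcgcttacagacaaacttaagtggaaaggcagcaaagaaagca
Myt1, chr2:181796057-181796306, plus strand: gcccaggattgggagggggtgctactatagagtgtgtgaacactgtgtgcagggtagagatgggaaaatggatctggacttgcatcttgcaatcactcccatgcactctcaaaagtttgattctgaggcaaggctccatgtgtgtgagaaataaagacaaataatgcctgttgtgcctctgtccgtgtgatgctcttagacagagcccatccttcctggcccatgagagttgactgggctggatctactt
Rnf213, chr11:119389849-119390098, plus strand: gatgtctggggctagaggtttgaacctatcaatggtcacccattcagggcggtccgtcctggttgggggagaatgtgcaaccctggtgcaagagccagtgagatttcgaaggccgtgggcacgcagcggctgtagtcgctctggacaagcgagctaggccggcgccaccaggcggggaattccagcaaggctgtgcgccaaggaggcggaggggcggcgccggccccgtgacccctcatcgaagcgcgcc
Gm39311, chr9:23581166-23581265, plus strand: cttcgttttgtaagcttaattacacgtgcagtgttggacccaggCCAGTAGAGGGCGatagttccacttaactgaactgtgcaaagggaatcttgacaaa
The Dlx6os1 window held the homeobox letters TAATTA at 2 places, and Dlx factors are homeobox proteins of inhibitory neurons. Those of Arhgap32, Myt1 and Rnf213 held none of the motifs searched in their printed bases, which says only that the letters are not in this window.

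Distal regions also hold microRNA genes, 69 hairpins in 68 regions by the RefSeq positions. The mature sequences below belong to hairpins whose region is described later, with the seed (bases 2 to 8), the part that pairs with targets, in capitals.
miR-9-5p: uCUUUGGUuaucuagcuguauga
let-7i-5p: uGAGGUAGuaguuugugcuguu
miR-92b-3p: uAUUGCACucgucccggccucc
miR-30c-5p: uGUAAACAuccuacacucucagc
miR-344b-3p: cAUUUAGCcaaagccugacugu
miR-344d-3p: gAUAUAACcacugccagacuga
miR-344h-3p: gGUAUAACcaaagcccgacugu
miR-344-3p: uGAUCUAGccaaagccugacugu
miR-344f-3p: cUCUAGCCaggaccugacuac
The first 4 have unrelated seeds. The 5 members of the Mir344 family that follow lie in 1 cluster on chromosome 7, and none of the 5 seeds equals another.

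The 100031 regions had a median length of 939 bp and ranged from 344 to 2231 bp. By GENCODE vM21, 45757 (45.7%) were intergenic, 39704 (39.7%) intronic and 14570 (14.6%) overlapped an exon, of which 8996 (8.99% of all) overlapped coding exons. Among the regions near gene positions 59.2% overlapped an exon and 3.14% were intergenic. The median distance to the nearest listed gene position was 31.1 kb, with quartiles of 12.3 and 77.6 kb, and the farthest region lay 1822 kb away. In all, 20636 regions (20.6%) lay within 10 kb and 19406 (19.4%) beyond 100 kb. Another annotated transcript start lay within 1 kb of 6026 regions (6.02%), so a small part of the distal set touches starts that the gene rows do not list. The 5 peak lists placed these regions at nearly the same bases. In 99112 regions (99.1%) each library gave 1 peak, and there the 5 midpoints spread over a median of 49.5 bp and over at most 112 bp in 90% of regions. The widest of the 5 peaks was a median of 1.06 times the narrowest.

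The regions were not spread evenly. The median gap to the next one was 9.92 kb, and 50.2% had the next within 10 kb. The densest megabase, chr12:100000001-101000000, held 115 beside a median of 42 per megabase, and 31 of them overlapped Ttc7b, a gene for a scaffold of phosphatidylinositol 4-kinase. Chromosome 1 held the most, 7844, and the X chromosome 1746.

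Accessibility is given in CPM, the cut sites of a region scaled to a total of 1000000 cut sites over the regions listed in all 5 libraries. In each library only the cut sites inside its own called peaks were counted. A library with a narrower peak thus counts fewer bases of the region. The mean over libraries had a median of 3.74 CPM in distal regions, with 80% of them between 1.90 and 9.65, and a median of 8.04 CPM in regions near gene positions. In raw counts the median distal region held between 280 cut sites in the shallowest library and 369 in the deepest. The 100 distal regions closest to the limit, 1001 to 1032 bp from a gene position, had a median of 6.03 CPM, and the 100 regions just inside it, at 965 to 1000 bp, had 5.55. Distal regions missed in exactly 1 library numbered 2530, 4048, 5927, 2631 and 1676 by the library that lacked them. Their medians in the other 4 libraries were 1.88 to 1.97 CPM, toward the low end of the set.

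The region of highest mean CPM, chr9:44048566-44049427, overlapped an exon of Thy1, 2.62 kb from the listed position. Any overlap with an exon counted, and its length was not measured. The region stood at 16.9, 470, 580, 613 and 600 CPM. Only the WT library was low there, and the locus is taken up below. The next was an intergenic region at chr1:195241236-195242143, 64.5 kb from Cr2, a complement receptor gene, at 267, 282, 217, 231 and 250 CPM (mean 249 ± 26.4, SD over the 5 genotypes). The third, chr13:9011326-9012262 in an intron of Gm36264, stood at 147, 162, 125, 163 and 146 CPM. Both were high in every library. At the other end, the lowest mean was 0.431 CPM.

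The libraries held 4050 to 7498 nuclei and 157482 to 180784 peaks, of which 55.6% to 63.8% lay in the distal regions. Cut sites in peaks totalled 83726719 to 105867030 per library, 14119 to 21209 per nucleus, and 46.0% to 48.4% of them fell in the distal regions. In all, 442 barcodes occurred in more than 1 library. After filters on genes and mitochondrial UMIs and removal of likely doublets, 3917 to 7032 nuclei per library were clustered on RNA alone. Mgll, the gene for MAGL, was not lost in the libraries labelled MAGL-KO. In the RNA of astrocytes it stood at 492, 354, 483, 401 and 430 CPM, and in other excitatory neurons at 66.5, 71.5, 83, 85.7 and 71.3 CPM. Neither the gene counts nor the labels say which exons were deleted, and UMIs of the remaining exons would check no deletion. The text therefore writes of libraries labelled MAGL-KO.

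Nuclear classes came from RNA clusters named by marker genes, and each name is short for clusters that are like that type. Dentate granule neurons gave 1133 to 2020 nuclei per library, other excitatory neurons 1482 to 3177, inhibitory neurons 551 to 915, oligodendrocytes 214 to 309, oligodendrocyte precursors 88 to 119, microglia 43 to 123 and astrocytes 29 to 71. Markers were read per class. Prox1, the dentate granule factor, stood at 230 to 270 CPM in granule neurons and 10.1 to 19.0 in other excitatory neurons, but also at 199.8 to 267 in oligodendrocytes. Dock10 of the granule list was higher in oligodendrocytes, at 3352 to 3685 CPM, than in granule neurons, at 922 to 1153. Dsp, of the same list, stood at 37.1 to 43.3 CPM in granule neurons and at 0 in oligodendrocytes. Csf1r, the microglial growth factor receptor, stood at 1025 to 1429 CPM in microglia and 0.251 to 0.920 in granule neurons. The inhibitory class was mixed. Its Gad2 stood at 158 to 185 CPM beside 0.879 to 2.18 in excitatory classes, but Slc17a7, the vesicular glutamate transporter gene of excitatory neurons, stood at 81.4 to 137 CPM in it. A cluster of the inhibitory class led by Sst held excitatory markers and made up 39.1%, 29.8%, 38.4%, 38.5% and 38.7% of the class. Whether it holds doublets was not tested, and the inhibitory contrast is given with and without it. Inhibitory clusters led by Vip and by Ano1 also held 9 and 7 of the 11 excitatory markers at 0.5 or more of their level over all nuclei, so the mixing is not confined to it.

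Distal regions took a larger share of cut sites in neurons than in glia. Of the cut sites in all regions listed in 5 libraries, distal regions held 53.2% to 54.7% over the libraries in other excitatory neurons, 50.3% to 51.6% in granule neurons and 46.9% to 49.9% in inhibitory neurons. In glia they held 33.4% to 34.6% in oligodendrocyte precursors, 32.9% to 33.4% in astrocytes, 29.2% to 29.9% in oligodendrocytes and 25.4% to 25.8% in microglia. No neuronal library overlapped a glial one. Precursors and astrocytes touch in their spread, and the other neighbours in this order did not overlap. The lists were called on all nuclei of a library, mostly neurons, so this order is not independent of the rule and no test was made. At the depth of these classes, 21 regions had no cut site in granule neurons, 29315 none in precursors, 32286 none in oligodendrocytes, 43604 none in astrocytes and 53687 none in microglia.

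Differences between classes were tested with edgeR's quasi-likelihood test on cut sites summed per library and class, with the library as a block, over all regions listed in 5 libraries. A region was called at a Benjamini-Hochberg adjusted p below 0.05 and a fold of at least 2. The 5 libraries are the replicates of a class difference and differ in genotype, so the p-values cover the spread among these 5 libraries. A fold against several classes is taken against the mean of their log levels, whereas the CPM printed beside it pools them, so the fold can exceed the ratio of the printed values. The filter on low counts left 48364 (48.3%) of the distal regions among 70788 in all. The 51667 not tested had a median of 2.64 CPM beside 6.15 in those tested. A region that passed only through a class in which it is high had to differ, so the counts below describe the tested regions and not the whole set.

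In granule neurons against other excitatory neurons, 6688 distal regions were called higher, where 11.2% of all tested regions were, and 10213 lower, where 17.7% were. These are 13.8% and 21.1% of the distal regions tested, while 5.48% and 9.99% of the regions near gene positions were called. In inhibitory against excitatory neurons, 3504 were higher (background 6.19%) and 3480 lower (background 5.52%). Calls near gene positions were again a smaller share, at 3.83% higher and 1.89% lower. Distal regions thus held the larger share of called regions in both neuronal contrasts. That difference in shares was not tested.

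The inhibitory split depended on scaling and on the mixed cluster. Without TMM scaling 4458 were higher and 1045 lower, so that 81.0% of calls were higher in place of 50.2%. Without the Sst-led cluster, an alternative chosen after seeing the data, 4256 were higher and 5989 lower. With doublets kept, 1916 were lower. Leaving out the library labelled WT, astrocyte, neuron or global MAGL-KO gave 1600, 1634, 2011 or 1471 lower.

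With classes from clusters, most tested distal regions were lower in glia than in neurons. In oligodendrocytes 4185 were called higher (background 9.12%) and 33744 lower (background 60.4%), with a median log2 difference of −2.99. In their precursors 3895 were higher (background 8.35%) and 29026 lower (background 49.7%), with a median of −1.87. In astrocytes 3907 were higher (background 8.28%) and 30572 lower (background 54.3%), with a median of −2.42. In microglia 2799 were higher (background 6.52%) and 37059 lower (background 66.6%), with a median of −3.98. The share called lower was 60% to 76.6% in the 4 glial classes, and 27.0% to 44.3% among regions near gene positions.

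The medians rest in part on fitted values of regions with no cut site, 8123 of the tested ones in precursors and 19581 in microglia. With those regions set to a floor of 3 cut sites over the class, the medians were −2.92, −1.83, −1.93 and −2.45 in the order above. Near gene positions the fitted medians, without such a floor, were −0.30, −0.15, −0.35 and −0.53. Without TMM the distal medians were −2.84, −1.56, −2.01 and −3.50, and the direction did not change. With doublets kept they were −2.73, −0.99, −1.52 and −2.12. With every region of at least 10 cut sites tested they were −3.42, −2.39, −3.29 and −6.56. Without TMM the microglial count of higher regions was 4205. With classes taken from the highest marker score instead of clusters, 78631 distal regions were tested and the excess of lower calls was smaller or gone. Astrocytes then gave 5061 higher and 4837 lower, with a median of −0.10. Precursors gave 4082 higher and 4969 lower (median −0.14), microglia 4462 and 10159 (−0.37) and oligodendrocytes 8723 and 31518 (−0.85).

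**Figure D1:**
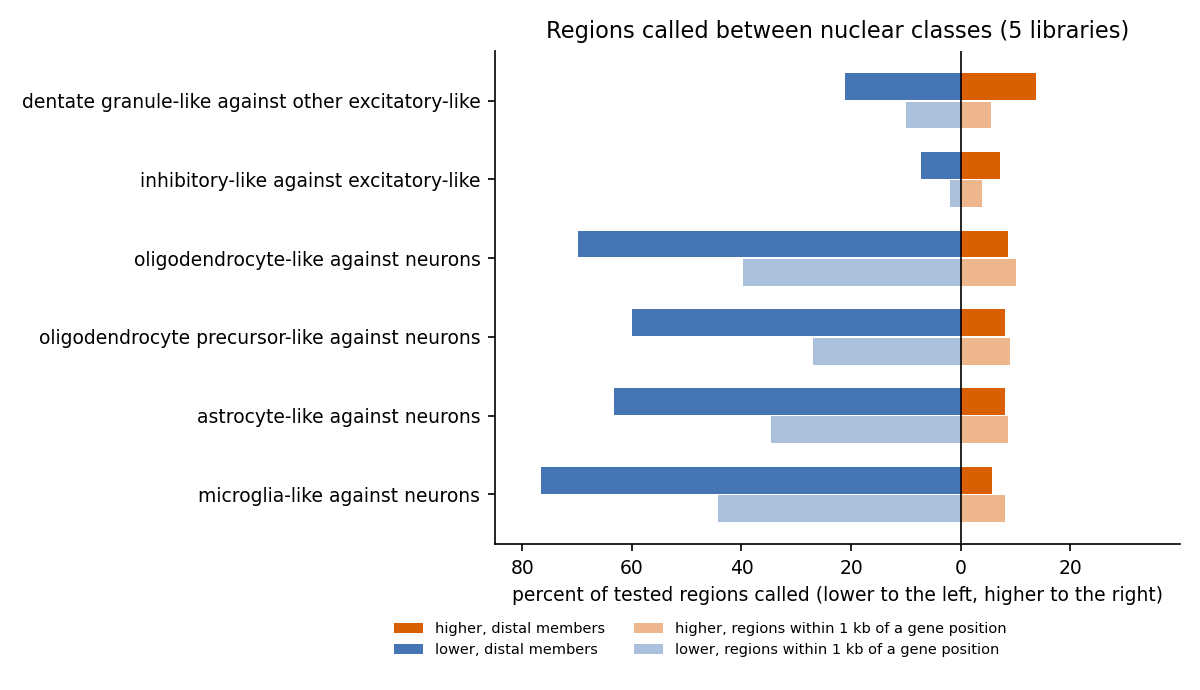
Percent of tested regions called lower (left of 0) and higher (right of 0) in each of 6 contrasts of nuclear classes, for distal regions (dark bars) and regions within 1 kb of a gene position (light bars). In every contrast the bar of distal regions called lower is longer than that of regions near gene positions, from 7.20% against 1.89% in inhibitory neurons to 76.6% against 44.3% in microglia. The bars of regions called higher are shorter for distal regions in the 4 glial contrasts, at 5.79% to 8.65% against 8.17% to 10.1%.

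The 4 glial contrasts share the neuronal sums, and their calls overlap. Of the tested distal regions, 6109 were higher in exactly 1 glial class, 3422 in 2 or 3 and 179 in all 4, while 22436 were lower in all 4. Regions higher in 1 glial class alone numbered 1719 in oligodendrocytes, 1046 in precursors, 1488 in astrocytes and 1856 in microglia. Regions called higher in a glial class are thus often not of that class alone. In all, 2864 tested distal regions (5.92%) were called in none of the 6 contrasts, beside 7478 (34.1%) near gene positions.

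Regions called higher in glia lay closer to gene positions. Their median distance was 15.8 kb in microglia, 19.6 in oligodendrocytes, 22.6 in precursors and 22.8 in astrocytes. Those higher in inhibitory neurons had a median of 31.7 kb and those higher in granule neurons 34.3 kb. Medians of the regions called lower ran from 28.1 to 38.1 kb over the 6 contrasts.

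Among regions open in granule neurons, the largest fold belonged to chr5:96021925-96022859, intergenic and 65.0 kb from Cxcl13, a chemokine gene. It stood at 13.1, 12.5, 11.9, 11.8 and 12.9 CPM in granule neurons and 0.895, 0.709, 1.15, 0.609 and 0.962 in other excitatory neurons. Every granule value exceeded every other value (log2 fold change 3.79, SE 0.23, edgeR adjusted p = 2.6e-47). The next were chr10:35212631-35213557, 272 kb from 1700054O05Rik, at a log2 fold change of 3.76, and chr14:11231794-11232703, 69.8 kb from Fhit, at 3.67.

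The regions most strongly lower in granule neurons were nearly empty there. At chr9:35892883-35893814, 14.6 kb from Pate13, granule neurons held 0 cut sites in all 5 libraries and other excitatory neurons 1476. The other excitatory values were 8.26, 7.65, 8.59, 7.66 and 7.86 CPM. Against a floor of 3 cut sites over the granule class this is at least 245-fold lower (edgeR adjusted p = 2.84e-54). Similarly, 1 cut site stood against 1356 at chr10:29424303-29425296 near Gm40621, and 1 against 1266 at chr9:37829732-37830653 near Olfr877, an odorant receptor gene.

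In inhibitory neurons the 3 largest folds all lay far from genes, 142 to 407 kb away. The first, chr12:35391738-35392728, 142 kb from Gm48236, stood at 8.83, 7.74, 7.67, 6.72 and 8.67 CPM against 0.304, 0.546, 0.529, 0.272 and 0.449 in excitatory neurons. The groups did not overlap (fitted log2 fold change 6.36, SE 0.37, edgeR adjusted p = 1.86e-49). The others were chr9:5752431-5753491, 407 kb from Casp12, at 6.13 and chr5:7522744-7523699, 178 kb from Zfp804b, at 6.04. By pooled CPM the last differed most, at means of 8.72 against 0.107, and the first stood at 7.92 against 0.420.

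For each glial class the regions of largest fold were chosen against neurons alone. Their levels in the other glia are not given, so they need not be particular to the class. In oligodendrocytes the largest fold lay at chr10:83906449-83907623, 97.2 kb from C230099D08Rik. It held 139, 148, 135, 157 and 148 CPM in these cells, and in neurons 0.533, 0.748, 0.494, 0.495 and 0.344 (log2 fold change 8.08, SE 0.16, edgeR adjusted p = 3.53e-193). An intergenic region 28.3 kb from Mal, a myelin proteolipid gene, at chr2:127627151-127627966 held 123, 133, 109, 126 and 146 CPM against 0.437, 0.541, 0.339, 0.638 and 0.397. Both stood far above neurons in every library. The region between them in fold, chr14:71046847-71047808 near Gm49289, had a log2 fold change of 7.97.

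In precursors the region at chr19:25439404-25440458, 65.2 kb from Dmrt1, held 83.9, 87.5, 89.2, 101 and 65.2 CPM against 0.465, 0.270, 0.226, 0.128 and 0.424 in neurons (log2 fold change 7.89, SE 0.26, edgeR adjusted p = 1.6e-107). Another lay 3.12 kb from Gjc3, a connexin gene of oligodendrocyte-lineage cells, at chr5:137966214-137967270. It ranged from 69.4 to 144 CPM in precursors and 0.252 to 0.493 in neurons. The remaining one, chr11:45789552-45790583 near F630206G17Rik, had a log2 fold change of 7.61.

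Astrocyte values rest on 29 to 71 nuclei per library. An intronic region of Gm33756 at chr19:59393789-59394737 held 133, 150, 139, 120 and 123 CPM against 0.588, 0.477, 0.466, 0.367 and 0.477 in neurons (log2 fold change 7.49, SE 0.24, edgeR adjusted p = 4.8e-112). A region 14.5 kb from Gm48053 at chr10:56899248-56900305 was uneven, at 83, 77.8, 83.4, 107 and 16.4 CPM. Its low value is that of the library labelled global MAGL-KO, which had 32 astrocytes. The third was chr14:76254776-76255717, 3.32 kb from 2900040C04Rik, at a log2 fold change of 7.20.

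In microglia the first region lay in an intron of A830008E24Rik at chr1:154097363-154098217. It held 59.8, 48.6, 78.1, 72.6 and 53.8 CPM against 0.369, 0.286, 0.494, 0.207 and 0.212 in neurons (log2 fold change 7.08, SE 0.33, edgeR adjusted p = 9.92e-70). The next were chr15:34046068-34047335 near Gm41290 at 7.01 and chr13:112439819-112440696 near Gm48879 at 6.72. Their microglial values rest on 43 to 123 nuclei per library.

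**Figure D2:**
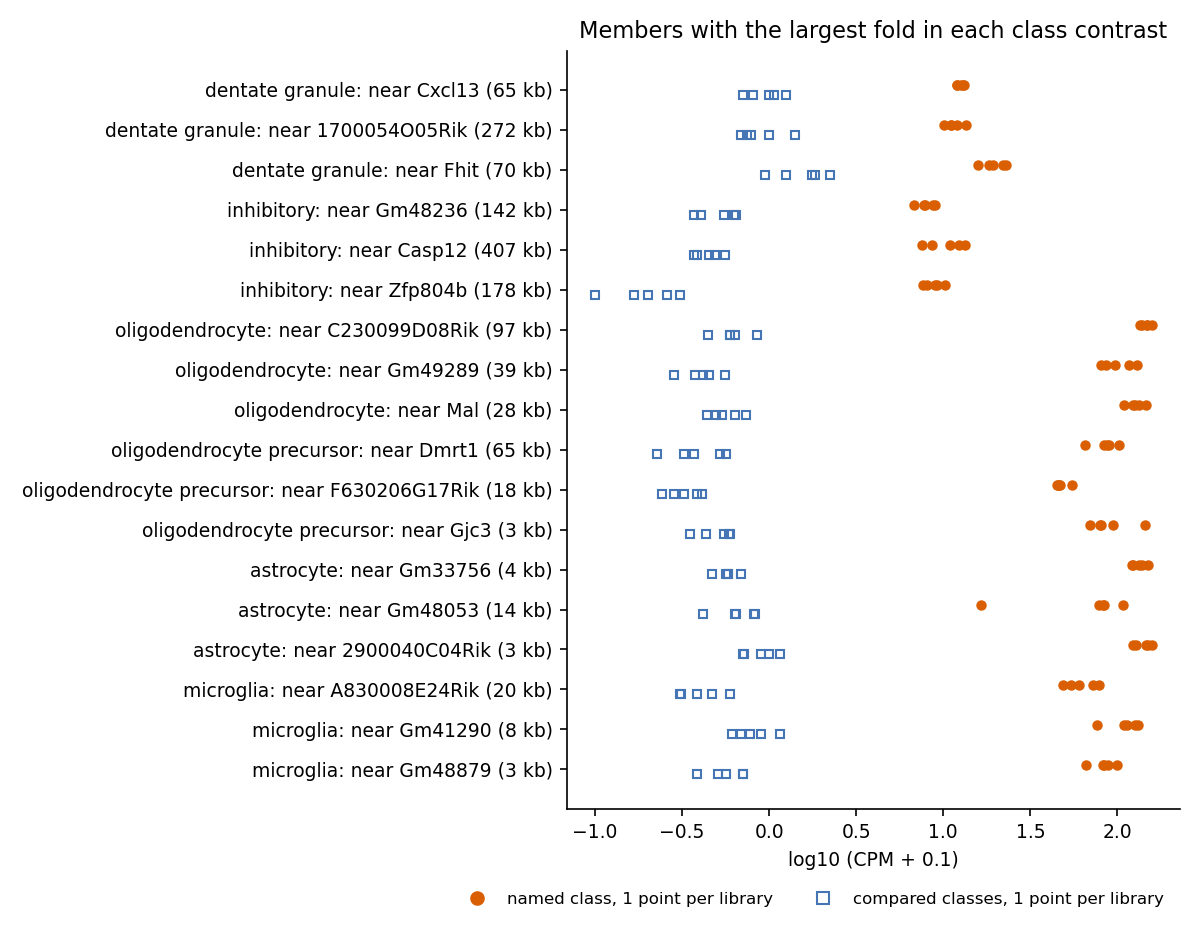
Accessibility in log10(CPM + 0.1) of the 3 distal regions with the largest fold in each of 6 contrasts, 1 point per library, for the named class (filled) and the classes it is compared with (open squares). In all 18 regions the filled points stand to the right of the squares, and 1 filled point of the astrocyte region near Gm48053 lies at 16.4 CPM, apart from the others.

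Regions within 100 kb of the start of known marker genes were read by class. Around dentate granule genes, 20 of 39 tested regions were higher in granule neurons and 5 lower, beside 11.2% and 17.7% of all tested regions. Their median log2 difference was 1.05, and that of all tested regions 0.03. C1ql2, a secreted synaptic organiser of mossy fibres, had 8 of 8 tested regions higher. Prox1 had 7 of 12 higher and 1 lower. Neurod1 had 2 higher and 1 lower of 8, Dsp 2 higher of 4 and Tdo2 1 higher and 1 lower of 5. Calb1, the calbindin gene, had 2 of 2 lower. An intronic region of Prox1 at chr1:190158770-190159723 stood at 11, 7.38, 9.77, 11.1 and 9.67 CPM in granule neurons and 1.30, 0.384, 0.671, 0.994 and 0.822 in other excitatory neurons. No values overlapped (log2 fold change 3.51, SE 0.24, edgeR adjusted p = 9.24e-38).

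Around genes of other excitatory neurons, 13 of 52 tested regions were lower in granule neurons and 7 higher, beside 17.7% lower and 11.2% higher over all tested regions. Zbtb20 had 2 regions lower in granule neurons and 5 higher of 15, and Bcl11b 4 lower and 2 higher of 21.

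Around inhibitory genes, 6 of 39 tested regions were higher in inhibitory neurons and 2 lower, beside 6.19% and 5.52% over all tested regions, with a median of 0.07. Lhx6, a factor of interneurons from the medial ganglionic eminence, had 3 of 8 higher. Neighbouring Dlx genes share regions. Dlx1 had 2 of 8 higher, Dlx2 2 of 11, and Dlx5 and Dlx6 each 1 higher and 1 lower of 3. Adarb2 had none higher and 1 lower of 2. Vip had none called of 2. Gad1, Gad2 and Sst, which encode the GABA-synthesising enzymes and somatostatin, had none called of 6, 2 and 5. The region of the Dlx6os1 window printed above, chr6:6869145-6870078 between the Dlx genes, overlapped an exon. It held 14.0, 13, 11.9, 12 and 12.9 CPM in inhibitory neurons. In excitatory neurons it held 0.371, 0.445, 0.317, 0.377 and 0.353 (log2 fold change 4.86, SE 0.23, edgeR adjusted p = 5.86e-65).

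Around oligodendrocyte genes, 28 of 70 tested regions were higher in oligodendrocytes and 24 lower, with a median of 0.68. Over all tested regions 9.12% were higher and 60.4% lower, with a median of −2.08. The genes differed. Olig2, which specifies the lineage, had 7 of 7 tested regions higher and Olig1 6 of 7, but the genes are neighbours that share regions, so these are not separate counts. Myrf, the myelin regulator, had 2 higher and 12 lower of 19. Mog had 2 higher and 6 lower of 11, and Sox10 5 higher and 4 lower of 15. At the Olig locus, chr16:91305320-91306279 in an intron of Gm15966 held 124, 125, 114, 130 and 135 CPM in oligodendrocytes and 192, 182, 117, 147 and 151 in precursors. Neurons held 0.980 to 1.51 there (log2 fold changes 6.50, SE 0.13, and 6.72, SE 0.16).

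Around precursor genes, 18 of 46 were higher in precursors and 12 lower, with a median of 0.33. Over all tested regions 8.35% were higher and 49.7% lower, with a median of −1.07. Pdgfra, the growth factor receptor that defines these cells, had 5 of 8 higher and 1 lower. Sox10 had 2 higher and 7 lower of 15 in this contrast. Around astrocyte genes, 22 of 44 were higher in astrocytes and 9 lower, with a median of 1.01. Over all tested regions 8.28% and 54.3% were, with a median of −1.58. Slc1a2, a glutamate transporter gene, had 6 of 7 higher, and Nfia, a factor of gliogenesis, 6 of 11. Lhx2 had 2 higher and 5 lower of 8. A region 27.1 kb from Slc1a3 at chr15:8737902-8738819 stood at 21.4, 15.6, 37.1, 16.1 and 24.6 CPM in astrocytes and 1.10 to 1.5 in neurons. It rests on 53 astrocyte cut sites (log2 fold change 3.63, SE 0.39, edgeR adjusted p = 1.47e-17).

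Around microglial genes, 25 of 74 tested regions were higher in microglia and 22 lower, with a median of 0.26. Over all tested regions 6.52% and 66.6% were, with a median of −3.14. Irf8, a factor of microglial identity, had 7 of 11 higher and none lower. Spi1, which encodes PU.1, had none higher and 5 lower of 9. Cx3cr1 had 3 higher and 4 lower of 10, and Trem2 3 higher and 4 lower of 7. A region near Irf8 at chr8:120685723-120686763, 17.5 kb from Cox4i1, held 103, 87.5, 134, 123 and 115 CPM in microglia and 0.820 to 1.89 in neurons (log2 fold change 5.84, SE 0.22, edgeR adjusted p = 4.84e-90).

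Around activity-regulated genes, 7 of 82 tested regions were higher in granule neurons than in other excitatory neurons (8.54%) and 13 lower (15.9%), beside 11.2% and 17.7% over all tested regions. Fos had 2 of 13 higher. Arc had 1 higher and 5 lower of 18, and Npas4 none higher and 1 lower of 8. A region 61.1 kb from Bdnf, the neurotrophin gene, at chr2:109770478-109771415 stood at 9.68, 10.7, 6.48, 7.65 and 9.52 CPM in granule and 1.2, 1.12, 1.61, 1.31 and 1.95 in other excitatory neurons (log2 fold change 2.57, SE 0.24, edgeR adjusted p = 1.57e-23).

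RNA of the nearest gene was compared in the same nuclei, with a pseudocount of 5 CPM and genes of at least 100 UMIs. It is a description of named classes, whose naming used some of these genes. Of the 1496 genes nearest to regions called higher in microglia, 44.9% had at least 2-fold higher RNA in microglia, beside 19.6% of the genes nearest to any tested region. The shares were 31.4% beside 11.6% in oligodendrocytes, 29.7% beside 13.9% in astrocytes and 21.4% beside 9.16% in precursors. In granule neurons they were 7.53% beside 3.11%, and in inhibitory neurons 6.28% beside 2.43%. Median log2 RNA differences ran from 0.06 in inhibitory neurons to 0.80 in microglia. In each contrast most of these genes thus did not have 2-fold higher RNA in the class.

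The start windows inside distal regions differed in base makeup from other start windows. Their median G and C content was 50.3%, beside 62.3% in windows of the other regions listed in 5 libraries and 52.7% in all windows, with medians of 6, 22 and 7 CG pairs. CTCF, read by name in both strands as for all motifs, was found in 3.01% of the 863 windows, 0.821% of windows of the other regions and 0.457% of all. AP-1 letters (TGANTCA) were in 11.9%, 4.43% and 7.81%. The E-box CAGATG was in 26.7%, 10.9% and 17.2%. The cyclic AMP element TGACGTCA ran the other way, at 1.04%, 3.64% and 1.79%.

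The remaining motifs lay between these. SOX letters (AACAAT) were in 13%, 5.04% and 10.7%, homeobox letters (TAATTA) in 7.07%, 2.30% and 5.29%, and RFX letters (GTTGCCA) in 7.88%, 4.50% and 4.38%. MEF2 was in 3.82%, 1.30% and 3.19%, and NF-I in 0.116% of windows in distal regions. PU.1 letters (GAGGAAGT) were in 3.13%, 2.52% and 3.2%. By class, the E-box was in 17.1% to 35.6% of the windows called higher over the 6 contrasts. In those called lower it was in 28.4% to 32.7%, except for 9 of 12 windows lower in inhibitory neurons. AP-1 was in 7.89% to 18.5% of windows called higher and in 8.33% to 15.8% of those called lower. These shares rest on 12 to 342 windows.

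The CTCF letters printed above lie in an intergenic region at chr9:23580932-23581867, 358 kb from Bmper. It was even across libraries, at 25.5, 25.7, 23.0, 21.9 and 24.8 CPM. It was lower in all 4 glial classes, by log2 differences of −3.76 in oligodendrocytes, −3.85 in precursors, −1.73 in astrocytes and −2.51 in microglia. Of 21 tested regions whose start window held CTCF letters, 3 (14.3%) were called in none of the 6 contrasts, and 65 of all 546 tested regions with a start window (11.9%) were.

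The other printed windows belong to regions of glia. Around the Arhgap32 window, chr9:32015964-32016993 held 34.9, 51.8, 35.8, 43.4 and 38.8 CPM in oligodendrocytes (log2 fold change over neurons 6.01, SE 0.23, edgeR adjusted p = 6.2e-91). Its means were 41.1 CPM in precursors and 32.5 in astrocytes. Around the window of Myt1, a zinc finger factor of progenitors, chr2:181795430-181796414 held 120, 109, 108, 114 and 93.8 CPM in precursors. Other excitatory neurons held 0.857 to 2.17 there (log2 fold change over neurons 6.25, SE 0.22). Around the window of Rnf213, an interferon-induced ubiquitin ligase gene, chr11:119389800-119390635 held 42.7, 77.8, 70.6, 20.2 and 78.1 CPM in microglia (log2 fold change over neurons 3.67, SE 0.21). The library labelled neuron MAGL-KO was lowest there, on 53 microglial nuclei. No interval is given for these values, and the difference between libraries was not tested. Means of the other glia were 25.6 CPM in precursors, 27.2 in oligodendrocytes and 33.9 in astrocytes.

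Of the 69 microRNA hairpins, 48 lay in tested regions. Of these, 29 were in regions lower in microglia, 24 in oligodendrocytes, 15 in astrocytes and 11 in precursors. Over all tested regions 66.6%, 60.4%, 54.3% and 49.7% were lower in these classes. In regions called higher there were 15 in oligodendrocytes, 11 in each other glial class and 8 in inhibitory neurons. The shares over all tested regions were 9.12% in oligodendrocytes, 8.35% in precursors, 8.28% in astrocytes, 6.52% in microglia and 6.19% in inhibitory neurons. In granule neurons 2 were higher and 11 lower, beside 11.2% and 17.7%. The largest cluster was Mir344, with 9 hairpins over 402 kb of chromosome 7 and 7 of them tested. All 7 were lower in microglia and 5 in astrocytes, where 66.6% and 54.3% of all tested regions were. In oligodendrocytes 4 were lower and 2 higher. The region of Mir344b, chr7:61790168-61791083, stood at 8.19 to 13.3 CPM in the neuronal classes and held 0 cut sites in every glial class.

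Single microRNA regions showed other patterns. The region of Mir9-3, a hairpin of miR-9, a microRNA of neural cells, at chr7:79504461-79505365 stood at 24.1, 24.9, 21.6, 22.8 and 20.4 CPM over the libraries. In microglia it averaged 2.33 CPM (log2 difference from neurons −4.23, edgeR adjusted p = 2.24e-21) and in oligodendrocytes 11.5 (−1.49). In precursors it averaged 57.5 CPM, a log2 difference of 0.76 that was not called. The region of Mirlet7i at chr10:122985589-122986558 was highest in oligodendrocytes (log2 fold change over neurons 1.37, SE 0.08, edgeR adjusted p = 4.58e-50). The region of Mir92b at chr3:89227031-89227926 was lower in microglia by a log2 difference of −3.87 and in oligodendrocytes by −2.69. The region of Mir30c-1 at chr4:120768624-120769634 was higher in inhibitory neurons, at a mean of 9.80 CPM (log2 fold change 2.70, SE 0.21, edgeR adjusted p = 3.95e-31).

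The spread across libraries is partly set by the rule, which kept regions listed in all 5 libraries and dropped the 77353 distal regions listed in 1 to 4. Among those kept, the highest of 5 libraries was a median of 1.29 times the lowest, and at most 1.77 times in 95% of regions, beside a median of 1.18 near gene positions. In 2210 regions (2.21%) the highest and lowest library differed by at least 2-fold. The Thy1 region stood apart by far. Against 16.9 CPM in WT, with a counting interval of 16.1 to 17.8, the 4 libraries with 5xFAD stood 27.7, 34.3, 36.2 and 35.4 times higher. The transgenes carry Thy1 sequence, so cut sites in transgene copies and in the native gene cannot be told apart here.

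The rise was bounded in place. The region at the Thy1 start, chr9:44042860-44043763, which is within 1 kb of a gene position and so not distal, rose from 25.6 CPM to 382, 470, 483 and 447. A region upstream of it stood at 3.86 CPM in WT and at 5.09 to 7.13 in the others, 1.32 to 1.85 times WT. A region by Usp2 on the other side stood at 57.7 CPM in WT and 53.1 to 58.6, or 0.921 to 1.02 times. In the distal Thy1 region, granule neurons rose from 16.0 CPM to between 522 and 743. Other excitatory neurons rose from 17.9 to between 552 and 675 and inhibitory neurons from 16.8 to between 313 and 457. Glia stayed far lower, at 0 to 2.52 CPM in WT and 1.18 to 36.4 in the 4 others. The neurons of the 4 libraries with 5xFAD thus all stood above their glia.

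**Figure D3:**
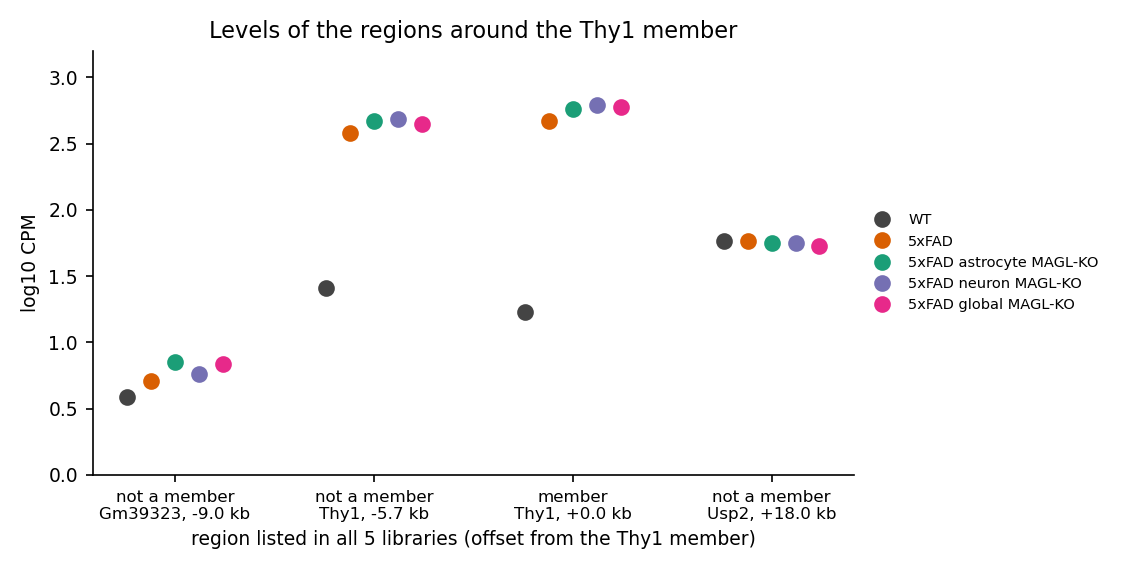
Accessibility in CPM on a log10 axis of 4 regions at and around Thy1, with 1 point per library. The distal region overlapping a Thy1 exon and the region at the Thy1 start are low only in WT, at 16.9 and 25.6 CPM. The flanking regions stand at 0.921 to 1.85 times WT.

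In the comparisons of libraries, regions at least 2-fold apart were few. In 5xFAD against WT, 27 of 100019 distal regions were at least 2-fold higher (background 0.0247% of all regions) and 18 lower (background 0.0162%). The Thy1 region was among the 27. In the library labelled astrocyte MAGL-KO against 5xFAD, 136 of 100025 were higher (background 0.119%) and 46 lower (background 0.0409%). In that labelled neuron MAGL-KO, 370 of 100011 were higher (background 0.321%) and 45 lower (background 0.0471%). In that labelled global MAGL-KO, 236 of 100026 were higher (background 0.211%) and 38 lower (background 0.0332%). These are ratios of CPM with 0.5 CPM added, in regions of at least 100 cut sites, and have no replicate check. With 2 CPM added, the higher counts fell to 2 for 5xFAD, 10 for astrocyte, 29 for neuron and 10 for global MAGL-KO, and the lower counts to 0, 9, 6 and 5. The Thy1 region remained among those higher in 5xFAD. The sets summed by class are those with 0.5 CPM added. The last 3 comparisons share the 5xFAD library. The median log2 ratios were −0.03, 0.05, 0.03 and 0.06, and 90% of regions lay between −0.34 and 0.30, −0.30 and 0.45, −0.36 and 0.50, and −0.30 and 0.51.

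The width of the called peaks moved with many of these ratios. Cut sites were counted only inside each library's own peaks and were not divided by length. Where widths differ, peak width and accessibility therefore cannot be told apart in the ratio. In 5xFAD against WT the length covered by peaks differed by more than 1.2 times in 23 of the 27 higher and 18 of the 18 lower regions. The share was 53 of 136 and 26 of 46 for astrocyte, 72 of 370 and 24 of 45 for neuron, and 66 of 236 and 19 of 38 for global MAGL-KO. Of all distal regions, 89623 stayed within 1.2 times over the 5 libraries. Counted only in regions whose covered length differed by at most 1.2 times between 5xFAD and WT, the first comparison gave 4 higher and 0 lower. The Thy1 region, with 822 bp covered in 5xFAD and 821 bp in WT, was among the 4. For example, an intergenic region at chr1:164998533-165000109 near 1700029M03Rik stood at 1.10, 3.69, 1.68, 2.94 and 1.82 CPM, and its peaks covered 1345 bp in 5xFAD and 743 bp in WT. In an intron of Lrfn5 at chr12:61647267-61648716, values were 2.35, 0.595, 2.06, 2.10 and 1.87 CPM, with 400 bp covered in 5xFAD and 904 bp in WT. Both differences came with a change of peak width, as did that of a region near Pum3, where 295 bp and 906 bp were covered. The largest upward ratios of the astrocyte comparison, near Gm27166 and Kbtbd8, came with 901 and 916 bp covered beside 277 and 416 bp in 5xFAD, and that of the global comparison, near Gm34567, with 1631 beside 567 bp.

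Some ratios came at like width. An exonic region of Gm49329 at chr12:17992366-17993279 stood at 11, 12.7, 2.81, 3.71 and 3.59 CPM, with 888 to 908 bp covered in the 3 libraries labelled MAGL-KO and 901 bp in 5xFAD. It was low in all 3 of these, by log2 differences from 5xFAD of −2.0, −1.65 and −1.69. An intergenic region at chr13:23400361-23401272 near Abt1 stood at 5.32, 5.56, 2.24, 1.51 and 2.74 CPM, with 680 bp covered in the neuron library and 799 bp in 5xFAD. A region at chr13:45354641-45355743 near Mylip stood at 5.44, 5.86, 2.11, 1.96 and 1.77 CPM, with 874 bp covered in the global library and 907 bp in 5xFAD. In all 3 regions WT and 5xFAD stood above the 3 libraries labelled MAGL-KO, while the lowest library differed between the regions.

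Further upward ratios came at like width. A region at chr12:26078790-26079735, 131 kb from Gm29687, stood at 2.45, 1.90, 5.20, 8.10 and 5.23 CPM, and its log2 ratio of neuron MAGL-KO to 5xFAD was 1.84. A region at chr13:73402437-73403436 near Eprn stood at 1.70, 1.02, 3.03, 4.87 and 4.01 CPM, with a log2 ratio of 1.82. For global MAGL-KO a region at chr10:67617828-67618790 near Gm32364 stood at 1.77, 1.16, 3.85, 4.64 and 4.87 CPM. In each the 3 libraries labelled MAGL-KO stood above WT as well as 5xFAD. One downward ratio in the astrocyte library came with a change of width. An exonic region of Ppp1r9b at chr11:95004279-95005208 stood at 7.15, 6.83, 1.2, 7.97 and 6.92 CPM, and its peak covered 115 bp there and 756 bp in 5xFAD.

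A run of 6 distal regions at chr17:6433365-6493454, around Dynlt1b, a dynein light chain gene, was high in the library labelled astrocyte MAGL-KO. Over the 6 regions this library ranged from 5.51 to 28.7 CPM and 5xFAD from 2.08 to 10.5. WT ranged from 1.17 to 8.0, neuron MAGL-KO from 2.70 to 17.6 and global MAGL-KO from 3.35 to 16.4 CPM. Log2 ratios to 5xFAD were 1.22 to 1.59 in the astrocyte library. This run was singled out after its values were seen.

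The regions raised past 2-fold in the libraries labelled MAGL-KO were read by class as sums over each set, which were chosen by this ratio and are a description. The 370 regions of the neuron comparison summed to 907, 726, 1399, 1861 and 1549 CPM over all nuclei. Each of the 3 libraries labelled MAGL-KO stood above WT and 5xFAD. In granule neurons the sums were 916, 812, 2005, 2503 and 2219 CPM, and in other excitatory neurons 919, 700, 1205, 1713 and 1370. A granule cluster with Penk, the proenkephalin gene, among its leading genes moved with this, and is called the Penk cluster here. It held 16, 18, 290, 278 and 553 nuclei, or 1.02%, 1.35%, 17.1%, 24.5% and 27.4% of the granule class.

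Within the Penk cluster the 370 regions summed to 3845, 4583, 4599, 6777 and 4861 CPM, above every other class in each library. In granule neurons without it they summed to 881, 764, 1408, 1058 and 1297 CPM. The ratio of the neuron library to 5xFAD was 3.08 in all granule neurons, 1.38 without the cluster, 2.45 in other excitatory and 2.27 in inhibitory neurons. The 136 regions of the astrocyte comparison had ratios of 3.03 in granule neurons, 2.48 without the cluster, 2.42 in other excitatory and 2.47 in inhibitory neurons. For the 236 regions of the global comparison these were 2.98, 2.03, 2.39 and 2.30. In glia the ratios of the 136 regions were 2.54 in oligodendrocytes, 2.92 in precursors, 3.01 in astrocytes and 1.32 in microglia. Those of the 370 regions were 1.64, 2.04, 2.13 and 1.38, and those of the 236 regions 2.02, 2.13, 1.18 and 1.32. In microglia the neuron library held 226 CPM in the 136 regions and 167 in the 236, below the 5xFAD sums of 269.5 and 200.1 CPM. In astrocytes WT was above the global library in all 3 sets, at 122 against 81.9 CPM in the 136 regions, 315 against 201 in the 370 and 143 against 131 in the 236. In the 370 it was also above the astrocyte library, at 299 CPM. The part of the Penk cluster in these ratios was not tested.

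**Figure D4:**
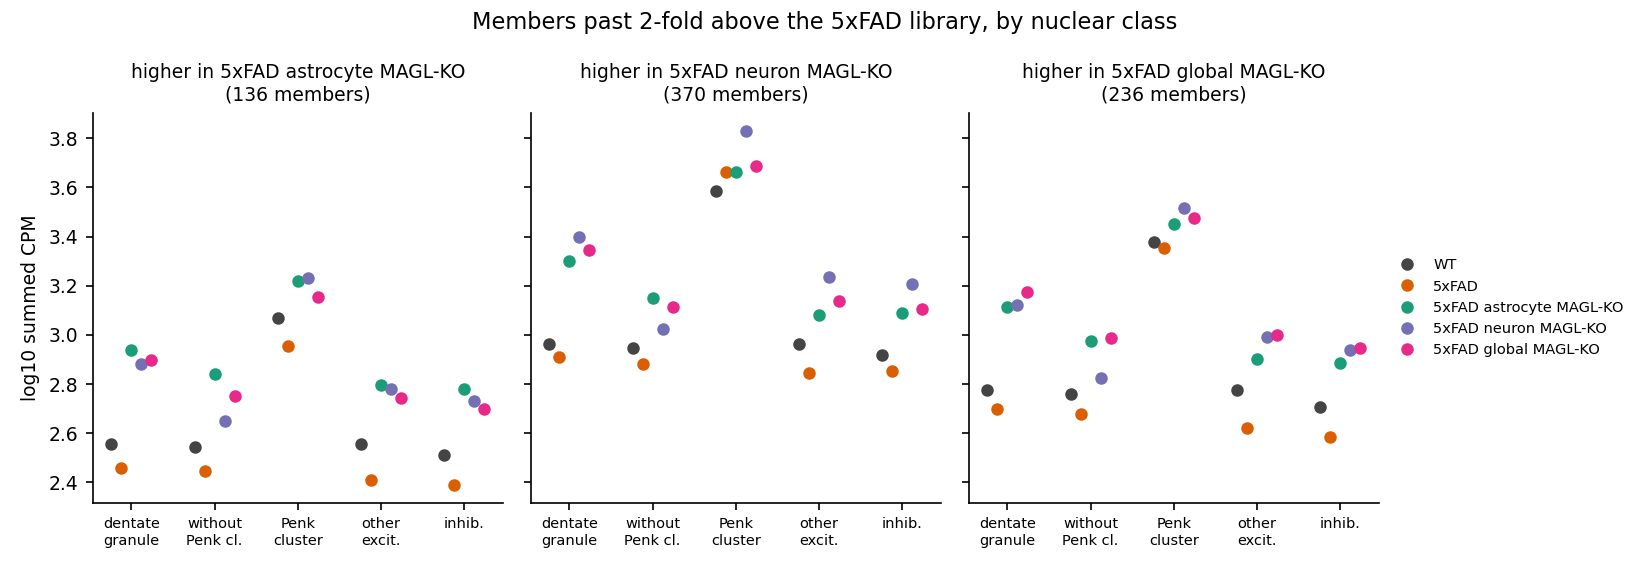
Summed accessibility (log10 CPM) of the 136, 370 and 236 distal regions past 2-fold higher than 5xFAD in the astrocyte, neuron and global libraries, in this order, by nuclear class and library, with granule neurons also split by the Penk cluster. In these neuronal classes the 3 libraries labelled MAGL-KO stand above 5xFAD, and the Penk cluster has the highest sums in all 5 libraries.

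X-linked distal regions were checked because the share of nuclei with Xist UMIs differed between libraries. The labels give no sex, and whether the sex makeup differed was not tested. With 1 library per genotype, such a difference could not be told apart from genotype in the comparisons of libraries. Among nuclei with UMIs of Xist or of Y-linked genes but not both, those with Xist were 29.8%, 12.9%, 30.2%, 46.0% and 21.4%. The 1746 X-linked regions had medians of 2.57 to 2.75 CPM over the libraries, and the median ratio of the highest to the lowest library was 1.31 beside 1.29 over all distal regions.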

How the data were processed

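The deposited files hold counts of transposase cut sites by peak and nucleus and counts of UMIs by gene and nucleus. Per the file headers the authors made both counts with cellranger-arc 2.0.0, and the submitters' processing notes name Cell Ranger ARC 2.0.0, Seurat and mm10. Peaks were called per library, since each file has its own peak rows. Coordinates are on GRCm38, with GENCODE vM21 for places and RefSeq GRCm38.p6 for start windows and microRNAs. Distances are from a region's edge to the nearest position in the deposited gene rows.

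Nuclei below 500 genes or above 5% mitochondrial UMIs were dropped. The nuclei with the highest Scrublet scores, 0.8% per 1000 nuclei, were removed because the automatic threshold failed. Clustering used scanpy 1.11.5 and leidenalg 0.10.2 in Python 3.11.15 on RNA alone. Cut sites were summed per library and class. They were tested with edgeR 4.0.16 (TMM, filterByExpr, library block) in R 4.3.3. On simulated data, recovery was counted by an adjusted p below 0.05 alone, without the fold limit. All simulated classes shared the same starting levels and the same spread, and changes were upward only. The real classes differ widely in level, so the rates do not measure the calls above. For microglia, 99.0% of 4-fold and 46.4% of 2-fold changes were recovered, with 7 unchanged regions passing. For granule neurons 100% of both sizes were recovered.

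Between libraries, ratios of CPM with 0.5 CPM added were used in regions of at least 100 cut sites, with no test. Cut sites without molecular identifiers are not independent molecules, so intervals and floors cover counting error only. Named regions are those of highest mean CPM, of largest fold per contrast (at least 100 cut sites), of extreme ratio between libraries (at least 200) and of largest fold near marker genes. None is from chromosomes 18, X or Y. The distal regions, marker lists and motifs were chosen with earlier results of these data known. The alternatives were other tests, filters, class definitions, scalings and left-out libraries. Some marker genes and the regions by them are not reported here. Of chromosome 6, 83.7 to 93.8 Mb were left out.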

Additional observations from a re-analysis of the deposited data

How the results depend on the processing

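No paired analysis was possible because each genotype has 1 library, so the 4 comparisons of libraries came from no test. All 317 alternative values of regions named by fold in a class contrast kept direction and call, wherever the region was tested. Regions named for ratios between libraries, microRNA regions and those of the Arhgap32, Myt1, Rnf213 and Gm39311 windows were not counted. With every region of at least 10 cut sites tested, granule neurons gave 13737 higher and 30189 lower, inhibitory neurons 9804 and 5370, and 77820, 64256, 65948 and 81333 were lower in oligodendrocytes, precursors, astrocytes and microglia. With classes by marker score, granule neurons gave 12192 and 18849, inhibitory neurons 5802 higher, oligodendrocytes 8723 higher and microglia 4462 higher and 10159 lower, while precursors gave 4082 higher and 4969 lower and astrocytes 5061 and 4837, of 78631 tested. In the inhibitory contrast 1045 were lower without TMM, 1916 with doublets kept and 5989 without the Sst-led cluster (chosen after seeing the data), and leaving out 1 library gave 1471 to 3014. Without TMM 4205 were higher in microglia. DESeq2, a fit without the library term and the other left-out libraries stayed within 1.5 times. Stricter or looser forms of the rule gave 89996 to 103212 distal regions.

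Between libraries, a pseudocount of 2 CPM gave 2 higher and 0 lower for 5xFAD, 10 and 9 for astrocyte, 29 and 6 for neuron and 10 and 5 for global MAGL-KO. The same ratios were also counted only in regions whose covered length differed by at most 1.2 times between the 2 libraries. These counts were 4 and 0 for 5xFAD, 83 and 20 for astrocyte, with 21 lower for neuron and 19 for global. In excitatory neurons alone 31 were lower for 5xFAD, 250 higher for astrocyte, 609 higher and 72 lower for neuron and 421 higher for global. Granule neurons alone were chosen after seeing the data. Their counts were 55 and 86 of 54952 regions, 1085 and 198 of 55873, 1190 and 205 of 52180, and 1442 and 177 of 55885. Without the Penk cluster they were 55 and 84 of 54499 for 5xFAD and 338 and 135 of 51414 for astrocyte. For neuron and global they were 149 and 126 of 46147 and 207 and 109 of 49757. Fewer cut sites stand behind single classes, and no share over all regions was computed for these counts.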
